A study of Mus musculus with 4 samples.

Results

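The clustered protocadherin genes are 57 protein-coding genes of mouse chromosome 18, out of 21755 protein-coding genes of the autosomes and X. They were chosen by symbol in the GENCODE mouse annotation, release M21, by a rule that uses no measured value. The set holds 14 alpha members, 22 beta members and 21 gamma members. The gamma members comprise 12 of subfamily A, 6 of subfamily B and 3 of the C type, and 2 of the alpha members are also of the C type. The annotation gives the symbol Pcdha11 to 2 separate alpha genes, and both were counted. Pcdhgb8, annotated as a polymorphic pseudogene, is not in the set.

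Clustered protocadherins are cell-surface adhesion proteins of the cadherin superfamily, best known from neurons. Each neuron expresses its own mixture of isoforms, and matching isoforms on touching membranes bind each other, which lets a cell tell its own branches from those of other cells. In the alpha and gamma clusters each variable first exon has its own promoter and is spliced to a shared set of constant exons, whereas each beta gene is a single exon. In neurons the variable promoters are chosen by chance under distant enhancers, CTCF and cohesin, and the C-type members are expressed more uniformly.

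ChIP-seq for H3K27ac, a histone acetylation found at active promoters and enhancers, had been done on the gastrocnemius, a calf muscle. The mice were adult females of B6CASTF1/J, a hybrid strain, at an age of 2 months. The series had 1 group and 4 libraries, made as pairs of technical replicates from 2 biological replicates, each a pool of 2 tissue samples. The deposited results are 4 lists of acetylated regions on mm10. Replicate 1 and replicate 2 each have a list, a pooled list was called on both together, and a replicated list, used below unless another is named, was also drawn from both. With 1 group there was no contrast between conditions to test, and the spread between replicates is given by the values of both replicate lists. Where several regions of a replicate overlap one of the replicated list, the highest signal value is given unless each is named. Depth is unknown, because the lists hold no read counts. The tissue is a mixture of cell types, so fewer cells with the mark and less of the mark per cell cannot be told apart.

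A gene counted as having a promoter region where an acetylated region lay within 1 kb of one of its annotated starts. Promoter regions were found at 10 of the 57 members (17.5%), against 13324 of 21755 coding genes (61.2%). Among the 513 coding genes of chromosome 18 the share was 67.8%. Replicate 1 had a region at 7 members, where 58.9% of coding genes had one, and replicate 2 at 12 members, where 61.2% of coding genes had one. The pooled list had 11 members with a region, beside 61.7% of coding genes. All 7 members found in replicate 1 were also found in replicate 2, 5 were found in replicate 2 alone, and 44 had no region in any of the 4 lists.

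The members with a region were all in the gamma cluster. No alpha member of 14 and no beta member of 22 had a region in any of the 4 lists, and this held with windows of 500 bp and of 2 kb to each side of the start. In the gamma cluster 10 of 21 members (47.6%) had a region, 7 in replicate 1 and 12 in replicate 2. Within it subfamily B had 5 of 6 members with a region (83.3%), 4 in replicate 1 and 5 in replicate 2. Subfamily A had 2 of 12 (16.7%), 1 in replicate 1 and 5 in replicate 2. The 3 gamma C-type members all had a region in the replicated list, and 2 of them did in each replicate.

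The alpha cluster was nearly free of the mark. Its variable part, 216347 bp from the start of Pcdha1 on, held no region in the replicated list or in either replicate. The first alpha gene, Pcdha1, lay 127.17 kb from the nearest region, and Pcdha8 lay 185.69 kb from one. The C-type members Pcdhac1 and Pcdhac2, the last of the array, lay 88.05 kb and 34.56 kb from one. The only region of the cluster was 802 bp wide, at 18:37178061-37178862. It had a signal value of 4.26 in replicate 1 and 3.22 in replicate 2, and 4.12 in the replicated list. It lay in the intron between the second and the third alpha constant exon, at the start of the noncoding gene Gm10544. Mouse studies of neurons place an enhancer of the alpha genes downstream in this cluster, but its position was not matched to this region here.

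The beta cluster held no region over its 259542 bp in any list. Pcdhb1, its first member, was 86.08 kb from the nearest region and Pcdhb22, its last, 124.97 kb. Pcdhb10 was 231.67 kb from a region, the farthest of all members. Over the 57 members the median distance was 128.59 kb, against a median of 3.35 kb over the gamma members alone.

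All alpha and beta starts lay within 2 stretches of chromosome with no acetylation called, parted by that single alpha region. The first ran for 375.05 kb, from 36803014 to 37178060, and held 17 coding starts, 14 of them alpha members. It measured 375.32 kb in replicate 1 and 375.05 kb in replicate 2. The second ran for 464.47 kb, from 37178863 to 37643330, and held 23 coding starts, 22 of them beta members. It measured 464.87 kb in replicate 1 and 464.56 kb in replicate 2. Of the 84430 stretches between neighbouring regions in the genome, 41 were at least as long as the second and held at least as many coding starts, and the count was 39 in replicate 1 and 44 in replicate 2. The commonest symbols in 19 of those 41 stretches were olfactory receptor genes. Keratin, vomeronasal receptor and taste receptor arrays were also among them. The 41 include the second stretch itself, which was the 1 protocadherin stretch among them. The first stretch was shorter and held fewer coding starts, so it could not be counted.

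Most gamma promoters with a region carried a short one. The 7 variable gamma members of the replicated list had regions 254 to 507 bp wide, with a median of 424 bp. Over the 15183 regions that lay at promoters of coding genes the median was 1747 bp, and 10.1% were at most 500 bp wide. Their signal values ran from 3.61 to 7.60 with a median of 5.15, against a median of 21.79 over all promoter regions.

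Among subfamily B, Pcdhgb2 had a region at 18:37689837-37690334, with a signal value of 4.50 in replicate 1 and 5.37 in replicate 2. Pcdhgb5 had one at 18:37730972-37731395, with 5.45 in replicate 1 and 7.16 in replicate 2. Pcdhgb6 had one at 18:37742145-37742651, with 3.55 in replicate 1 and 4.25 in replicate 2. These members encode variable ectodomains of the same adhesion family, and their regions were present in both replicates. Pcdhgb7 had a region at 18:37751612-37751997, with 4.26 in replicate 1 and 5.37 in replicate 2. Pcdhgb4 had one at 18:37720410-37720713, with no region in replicate 1 and 3.58 in replicate 2. Pcdhgb1, the first of the subfamily, had no region in any list and lay 9.60 kb from the nearest. Downstream of Pcdhgb7, the pseudogene Pcdhgb8 had a region with a signal value of 3.87, absent from replicate 1 and at 4.24 in replicate 2.

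In subfamily A, Pcdhga6 had a region in both replicates. Its region at 18:37707034-37707459 had a signal value of 5.21 in replicate 1 and 8.95 in replicate 2. At 7.60 in the replicated list it was the highest of the variable gamma members, and 22.5% of promoter regions were lower. Pcdhga5 had a region at 18:37694436-37694689, with none in replicate 1 and 4.99 in replicate 2. Pcdhga1, the first gamma gene, and Pcdhga7 had regions in replicate 2 and the pooled list alone. In replicate 2 these covered 272 bp at Pcdhga1 and 347 bp at Pcdhga7, and both had 0 bp in replicate 1. Pcdhga2 had a region in replicate 2 alone, of 321 bp. The other 7 A members had none in any list, and of these Pcdhga3 was 15.53 kb from a region, the farthest of the gamma members.

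**Figure D1:**
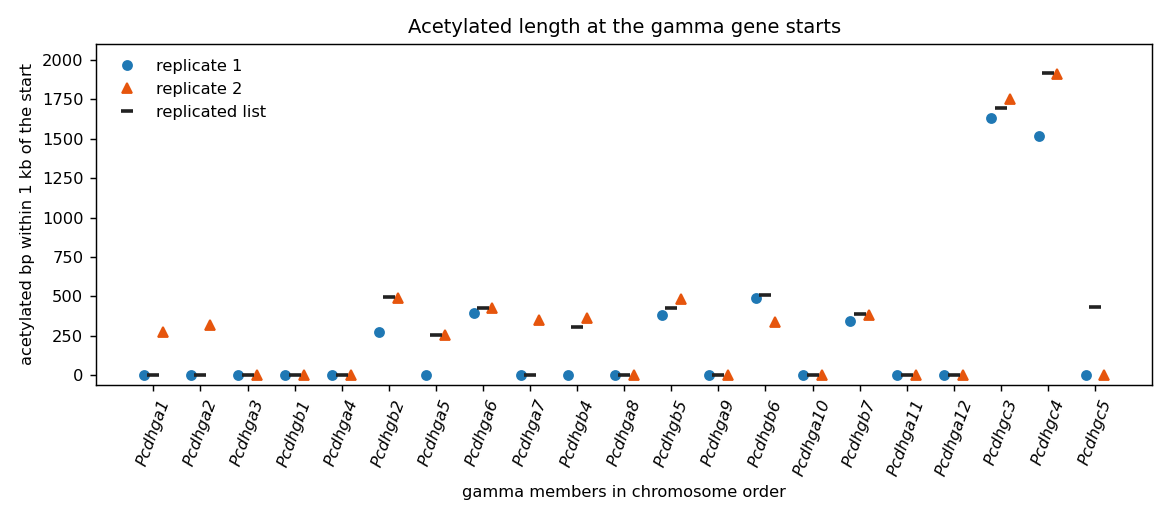
Acetylated length within 1 kb of the start, in bp, for the 21 gamma members in chromosome order, in replicate 1, replicate 2 and the replicated list. Pcdhgc3 and Pcdhgc4 reach 1519 bp or more in both replicates, while no variable member passes 507 bp and 5 members have a value above 0 in replicate 2 but not in replicate 1.

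The variable gamma regions shared their place. In the replicated list each began between 37 bp before and 56 bp after the annotated start and ended 309 to 557 bp after it. The summits, the points of highest signal within a region, lay 94 to 241 bp after the start, with a median of 156 bp. Between 91.3% and 100% of the bases of each region lay in the member's own first exon. Over the 10 members with a region, a median of 99.4% of the region's bases lay after the start, against 64.1% for the 12800 other coding genes with the same measure. That measure was added after the first values were seen. The regions compared were of unlike width. The median width was 429.5 bp over the members' regions and 1747 bp over the promoter regions of coding genes. The contrast is not given for regions of like width, and the part of width in it was not tested.

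**Figure D2:**
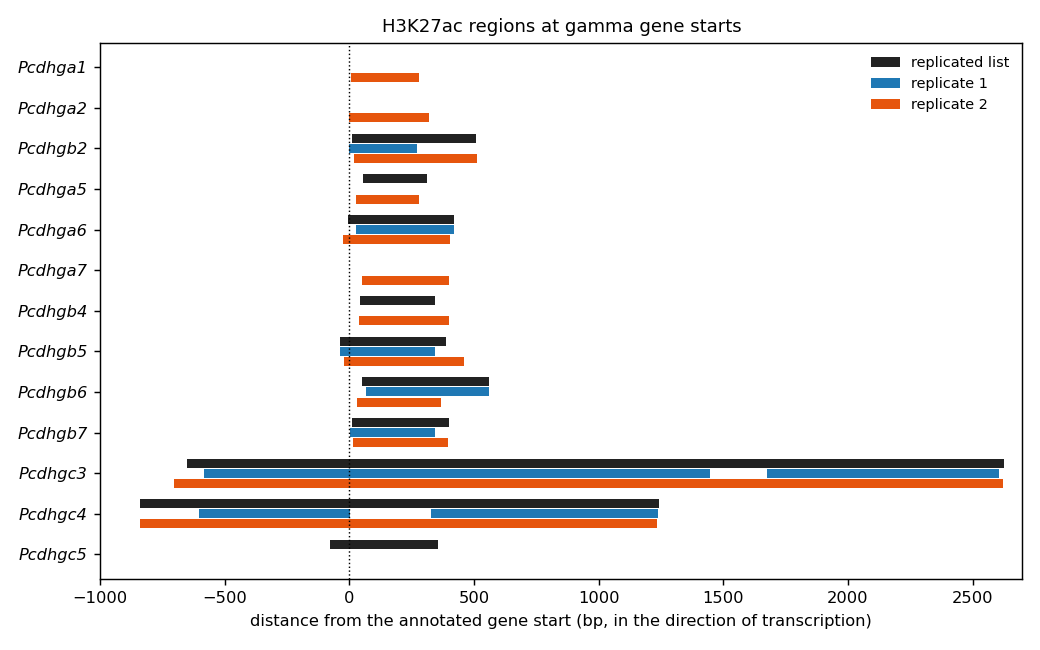
Extent of the acetylated regions, in bp from the annotated start in the direction of transcription, for the 13 gamma members with a region in any of the lists drawn, in the replicated list, replicate 1 and replicate 2. The regions of variable members begin close to 0 and end by 557 bp in the replicated list, whereas those of Pcdhgc3 and Pcdhgc4 also extend upstream.

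Pcdhgc3 and Pcdhgc4 had wider regions than any variable member, and the C-type members differed among themselves. Pcdhgc3 had a region of 3276 bp at 18:37805713-37808988, with a signal value of 26.52 in replicate 1 and 31.10 in replicate 2. Its value of 31.90 in the replicated list was above that of 68.8% of promoter regions, and its −log10 q was 263.78. It covered 1631 bp of the window around the start in replicate 1 and 1753 bp in replicate 2. The same region overlapped the start of the antisense gene BC037039, and ChIP-seq carries no strand, so the mark cannot be given to one gene or the other. Pcdhgc4 had a region of 2082 bp at 18:37814239-37816320, with 2 regions of 3.31 and 4.03 in replicate 1 and 1 region of 5.59 in replicate 2. It was wide but low: 13.2% of promoter regions had a lower signal value than its 4.77. Pcdhgc5, the last gamma member, had a region of 433 bp at 18:37819434-37819866 in the replicated list alone. Its signal value was 2.35 and its −log10 q 3.39, only 0.329% of promoter regions were lower, and neither replicate list nor the pooled list had it. The alpha C-type members had 0 bp in all 4 lists.

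Over the intervals compared, the acetylated share was highest in the stretch that holds the gamma constant exons, which every gamma transcript includes, and most of that stretch is intron. Of the 19739 bp from the end of the last variable exon to the end of the cluster, 65.5% was acetylated. The share was 50.6% in replicate 1 and 67.9% in replicate 2. The noncoding genes Gm38182 and Gm29994 also start in this stretch, with regions within 1 kb of their starts. The mark of those regions cannot be given to one gene or another. Over the gamma variable part, 160342 bp long, the share was 5.87%, with 3.96% in replicate 1 and 6.24% in replicate 2. The whole gamma cluster had 12.4%, the alpha cluster 0.311% and the beta cluster 0%, beside 4.62% of chromosome 18 and 4.61% of the autosomes and X. Replicate 1 had 9.08% over the gamma cluster beside 3.33% of the autosomes and X, and replicate 2 had 13.0% beside 4.60%.

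The first gamma constant exon was covered along all of its 59 bp in each list. The second was covered over 53 of its 89 bp in replicate 1 and over all 89 in replicate 2. The third, the longest, had 0 bp covered in the replicated list and in replicate 1, and 436 bp in replicate 2. The widest region of this stretch, 6485 bp at 18:37832430-37838914, spanned the second exon and ended before the third. Replicate 1 had 2 regions in its place, the first with a signal value of 3.08, which reached the second exon, and the other with 14.92, which began after that exon. Replicate 2 had 1 region, with 25.51. In the replicated list the region was wider than 98.2% of all regions.

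Acetylation continued beyond the gamma cluster. The 100 kb downstream held 21 regions that covered 31.3% of it, with 21.2% in replicate 1 and 31.7% in replicate 2, and the 100 kb upstream of the alpha cluster held none. Diaph1, which encodes a formin that nucleates actin filaments, occupies most of the downstream flank. A region of 4964 bp at 18:37876502-37881465, within a Diaph1 intron, lay 34.63 kb past the last gamma exon, with signal values of 18.27 in replicate 1 and 26.15 in replicate 2. Its neighbour at 18:37883681-37885336 had 20.94 in replicate 1 and 26.26 in replicate 2. The start of Diaph1 had a region with 29.60 in replicate 1 and 38.72 in replicate 2. In mouse neurons, elements downstream of the gamma cluster are known to act on protocadherin promoters, and none was matched by position to these regions here.

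Of the 6 other coding genes that start in the span, 2 had a promoter region in every list. These were Diaph1 and Taf7, a TFIID subunit gene that lies between the beta and gamma clusters. The region at Taf7 had a signal value of 18.81 in replicate 1 and 25.77 in replicate 2. Slc25a2, a mitochondrial carrier gene beside Taf7, had none, and nor did Gm42416, Gm37013 and Gm37388, models that start within the alpha array. The gap between the beta and gamma clusters held 1 more region, at the start of the noncoding gene 3222401L13Rik. It had 9.68 in replicate 1 and 17.94 in replicate 2, and lay upstream of Pcdhga1.

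Coding genes with CpG-rich promoters had a region more often, so members were set beside coding genes of like CpG count. The median CpG count within 1 kb of the start was 54.5 for alpha, 29.5 for beta and 54 for gamma members, against 67 for all coding genes. Among promoters with under 30 CpG, 0 of 11 members had a region, beside 12.3% of coding genes. With 30 to 59 CpG, 6 of 14 gamma members and 0 of 20 alpha and beta members had one, beside 54.9% of coding genes. With 60 to 89 CpG, 3 of 6 gamma members and 0 of 4 alpha and beta members had one, beside 85.7% of coding genes. The 2 members with 90 or more were Pcdhgc3, which had a region and 119 CpG, and Pcdhac2, which had no region and 102 CpG, beside 89.3% of coding genes. Variable gamma members with a region in the replicated list had a median CpG count of 55 (range 47 to 68). Those without had a median of 52 (range 42 to 79), so the ranges overlapped. The part of CpG count in the calls was not tested.

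**Figure D3:**
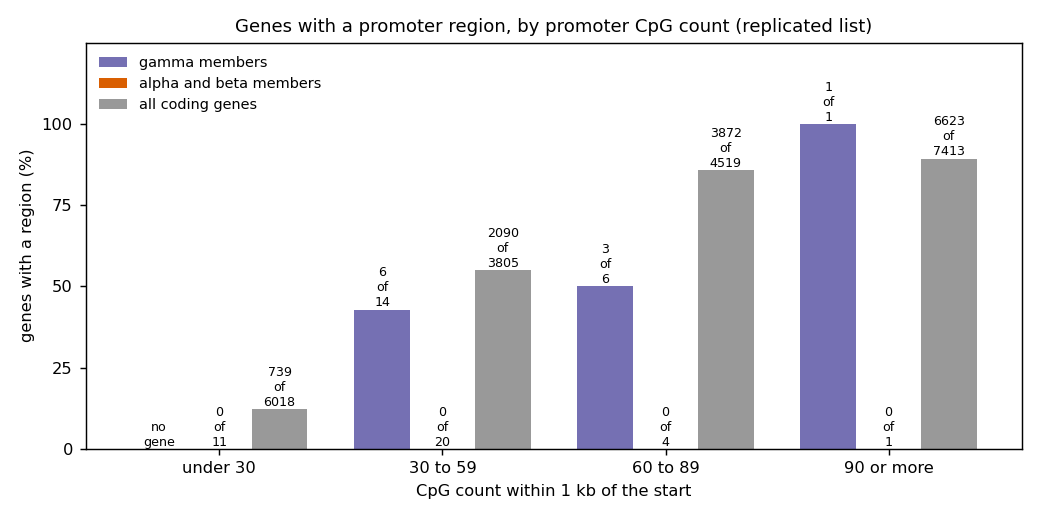
Percentage of genes with a promoter region in the replicated list, by CpG count within 1 kb of the start, for gamma members, alpha and beta members, and all coding genes, with the counts above each bar. Gamma bars stand at 6 of 14 and 3 of 6 genes in the middle classes, where alpha and beta members are at 0 of 20 and 0 of 4.

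Members resemble each other in sequence, and reads from identical sequence may not have been placed on the genome at a single position; the sources used here do not say how such reads were treated. In the 500 bases after the start, the share of 32-base words that occur elsewhere in the genome had a median of 43.8% over alpha variable members and 0% over beta members. It was 3.93% over subfamily A and 30.5% over subfamily B. Over the whole window of 1 kb to each side of the start, medians were 11.3% for alpha variable and 0.406% for beta members. They were 2.31% for subfamily A and 10.8% for subfamily B, against 0.660% for the 456 other coding genes of chromosome 18. In the 500 bases after the start, the 7 variable gamma members with a region had a median of 30.4%, against 2.13% for the 11 without. Pcdhgb4 and Pcdhgb5 each shared 41.9% of these words with other members, Pcdhgb6 and Pcdhgb7 shared 28.9%, and Pcdhgb2 shared 0%. The alpha C-type members Pcdhac1 and Pcdhac2, which had no region, had 0%. The part of repeated sequence in the calls was not tested. Nor was that of the CAST alleles of this hybrid strain, which differ from the C57BL/6J reference.

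**Figure D4:**
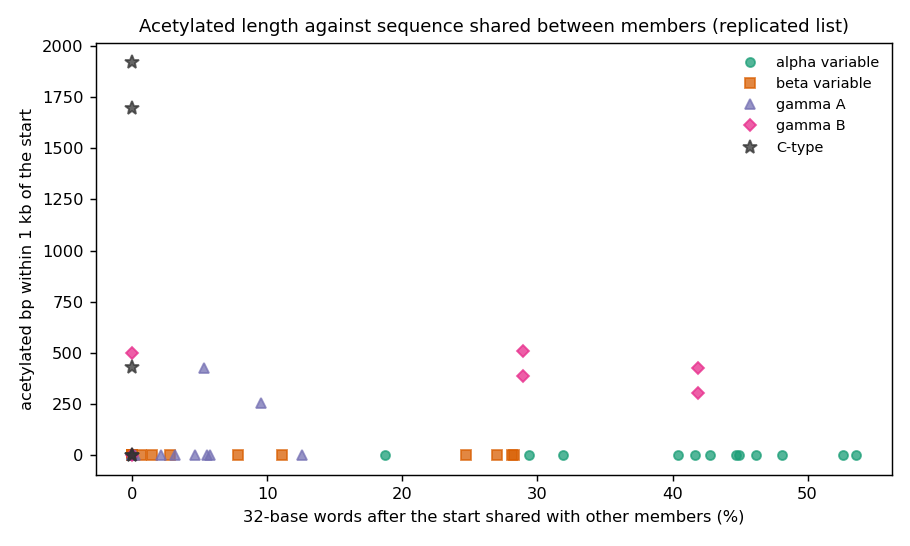
Acetylated length within 1 kb of the start, in bp, in the replicated list against the percentage of 32-base words in the 500 bases after the start that are shared with other members, for all 57 members by subfamily. Subfamily B members with a region lie between 0% and 41.9%, and the alpha variable and beta members lie at 0 bp over the whole range.

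The CTCF core, searched as CCANNAGNNGGC on both strands within 1 kb of the starts, was present at 9 of 57 members, against 3501 of 21755 coding genes (16.1%). Its holders were 8 of 14 alpha members, 0 of 22 beta members and 1 of 21 gamma members, Pcdhga2. These letters are a description of the sequence and not of binding, which was not measured. Only exact matches to the fixed letters were counted, so sites that differ in any of them would be missed.

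The 12 non-clustered protocadherin genes listed are single genes with their own promoters. Their promoter CpG counts ran from 31 to 171, and most had 60 or more. The share of 61.2% over all coding genes is not matched to those counts. Of the 12, 7 had a region near a start (58.3%), with 6 so in replicate 1 and 7 in replicate 2. Those without one were Pcdh8, Pcdh10, Pcdh11x, Pcdh15 and Pcdh20. All 17 genes listed as regulators of the clusters had one in every list. Among them were Ctcf, the cohesin subunit gene Smc3, the DNA methyltransferase gene Dnmt3b and the silencing factor gene Smchd1. The lowest promoter CpG count among the 17 was 78. Of all coding genes with 60 to 89 CpG 85.7% had a region, and of those with 90 or more 89.3%. Among other gene clusters, 29 of 39 Hox genes (74.4%) and 58 of 67 replication-dependent histone genes (86.6%) had a region. The share over all coding genes was 61.2%, which is not matched for CpG count. Promoter CpG counts ran from 44 to 211 over the Hox genes and from 10 to 167 over the histone genes. Most genes of both lists had 60 or more, the classes in which 85.7% and 89.3% of coding genes had a region.

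Markers of some of the cell types in the tissue are given beside these counts. All 6 fibre markers had a region at the promoter, and a median of 9732 acetylated bp within 5 kb of the start, against 1472 bp over all coding genes. All 5 fibroblast and all 5 endothelial markers had a promoter region. Over all coding genes 61.2% had one. Of 7 neuron markers only Stmn2 had a region, with a signal value of 5.41, and the list's median acetylated length was 0 bp in both replicates. Cell bodies of motor neurons lie outside muscle, and this list does not cover the glia of the nerve. Which of these cells carried the gamma regions was not tested.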

How the data were processed

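The authors deposited 4 narrowPeak lists on mm10 from 4 libraries. Per the deposited descriptions, 1 list came from replicate 1, 1 from replicate 2, 1 from both pooled, and the replicated list from both; technical replicates shared 1 alignment and were not counted apart. The sources used here do not give the aligner, peak caller, thresholds or filters. Each region carries a signal value whose scale is not given, a display score, and a q-value as −log10, all as deposited by the authors. Signal values were ranked only within a list. Those of the 2 replicates are given side by side without adjustment. The median over promoter regions of coding genes was 17.65 in replicate 1 and 23.09 in replicate 2. Members' values come from pooled tissue samples, and depth is unknown.

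Gene starts came from GENCODE release M21 (basic set, GRCm38), and coordinates count from 1. No region ran past a chromosome end. CpG counts, the CTCF core and 32-base words were read from the GRCm38 sequence. Python 3.11.15, numpy 2.4.6 and matplotlib 3.10.9 were used, and counting was tested on simulated regions. No test was run, since there is 1 group and genes are not replicates.

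The rule for the members uses symbols alone, but the members, gene lists and rules were chosen with earlier results of these data known. Named members are those with a region in any list, the C-type members, the first and last of each cluster, and the nearest and farthest from a region. Other named genes are coding genes of the flanks and those of a list that lack a region or alone have one; Ctcf, Smc3, Dnmt3b, Smchd1, Pcdhgb1, Pcdhgb8, Pcdhga3, Pcdha8 and the noncoding genes were named after their values were seen. Empty stretches, words shared between members, constant exon coverage and the side of the start were also described after values were seen. Alternatives were the other lists, stricter q-values, other windows and other overlap rules. The result of 1 further marker list, for glia of the nerve, is not reported here.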

Additional observations from a re-analysis of the deposited data

How the results depend on the processing

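The number of members with a promoter region was 10, and 7 to 12 when a replicate was left out. It was 6 where regions needed a −log10 q of at least 10. The share of all coding genes was not computed at stricter q-values or in other windows. The fall in members therefore cannot be set beside that over all genes. With that minimum the regions over the 3 clusters numbered 11, against 18, and subfamily B had 3 members with a region. Leaving out a replicate gave 17 to 21 regions. The acetylated length over the clusters was 23146 bp. It was 14683 bp where both replicates had to overlap by 50% of both regions, and 16659 to 24111 bp when a replicate was left out. The share of all coding genes with a region was 61.2%, and 58.9% to 61.2% when a replicate was left out. By CpG count it was 12.3% under 30, 54.9% from 30 to 59, 85.7% from 60 to 89 and 89.3% from 90 on. The cause of these shifts was not tested. Subfamily A depended most on the list: 2 members had a region, against 4 in the pooled list, 5 in replicate 2 and 1 in replicate 1. The counts of 0 for alpha and beta members, and of 2 other coding genes, held under all alternatives run. The pseudoreplicated lists of single replicates hold different numbers of regions. Within the span 97.4% of replicate 1 regions were found in replicate 2, and 63.6% of replicate 2 regions in replicate 1, beside 92.5% and 62.5% over the autosomes and X. Without read counts, a start with no region means no call, and a level under the calling threshold cannot be told from none. No paired analysis was possible because there was 1 group.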
